A study of Homo sapiens with 9 samples.

Results

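The genes described here are the numbered zinc finger genes of the ZNF series, the largest family of human transcription factor genes. Members were the rows of the gene count table whose symbol is ZNF followed by 1 to 3 digits and whose mean level over all 9 libraries was at least 3 CPM (counts per 1e6 counts of the library's total). The rule was met by 354 of the 26475 rows. The table held 476 rows with such a symbol, and the other 122 lay under the limit, 12 of them at 0 in all 9 libraries. Members were thus selected on their measured mean level over all 9 libraries. That mean includes the 6 treated libraries, so a gene that is high in a treatment passes the limit more easily. The controls of 13 members averaged under 3 CPM; 7 of these were called higher in the knockdown and 9 with PRGL493, and none lower.

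RNA-seq of the human triple-negative breast cancer cell line MDA-MB-231 was analysed in 9 bulk libraries. Cells in 3 libraries were stably transduced with pLKO.1-shACSL4, a lentiviral vector that expresses a hairpin directed at the RNA of ACSL4, an enzyme that couples long-chain polyunsaturated fatty acids to coenzyme A. Another 3 libraries came from cells with empty pLKO.1 that were given PRGL493, an ACSL4 inhibitor, and the last 3 from cells with empty pLKO.1 alone, the controls of both. All 9 thus share the cell line and the vector backbone, and each group came from 3 batches of cells, per the series' design text. Neither a dose nor an exposure time nor a vehicle of PRGL493 is in the labels, which name 1 hairpin construct and no other, and describe no rescue of ACSL4. The series title ties ACSL4 to acetylation of histone H3 and to SNAIL, the product of SNAI1. P-values below measure the spread between batches of 1 cell line. In bulk RNA, a shift in every cell and a shift in a share of the cells cannot be told apart.

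A C2H2 zinc finger folds around a zinc ion and reads a few bases of DNA, and a protein with many fingers in a row reads a long site. Most numbered ZNF proteins also carry a KRAB box, which recruits TRIM28 (KAP1); TRIM28 in turn brings the histone H3 lysine 9 methyltransferase SETDB1 and heterochromatin protein 1, so KRAB zinc finger proteins mostly act as repressors, many of them of transposable elements. Many of these genes arose by tandem duplication and lie in clusters on chromosome 19, and in many cell types the 3′ ends of those genes are themselves covered by methylated histone H3 lysine 9.

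The working name of the set, KRAB-type zinc finger genes, held for most members but not all. In the GENCODE release 29 annotation of GRCh38, 353 members had an entry and ZNF788 was not matched. A profile search of the translated coding sequences found a KRAB box in 233 of the 353 and none in 120. A SCAN domain, another protein interaction domain of this family, was found in 18, of which 12 also had a KRAB box. Members with a KRAB box had a median of 12 C2H2 fingers and those without one a median of 8. ZNF142 had the most, 35, and 6 members (ZNF185, ZNF330, ZNF703, ZNF738, ZNF839 and ZNF862) had none by the pattern used. ZNF185 is an actin-associated LIM domain protein and ZNF330 a nucleolar protein, so the symbol alone does not make a C2H2 factor. The members are therefore called numbered ZNF genes below, and those with and without a KRAB box are given apart. Chromosome 19 held 177 of the 353 and 151 of the 233 with a KRAB box.

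Promoters of 4 members among those with the largest rises in either treatment are shown, each from 250 bases before to 50 after the transcription start of the RefSeq annotation of GRCh38.p14, written 5′ to 3′ on the gene's own strand. The windows are chr19:12551433-12551732 on the minus strand, chr19:57320222-57320521 on the plus strand, chr19:19900696-19900995 on the plus strand and chr19:57578862-57579161 on the minus strand. Capitals mark matches, on either strand, to the GC box GGGCGG, to CCAATCA, which holds a CCAAT box, and to the ETS-type motif CCGGAAG, which reads CTTCCGG on the other strand. No matches overlapped in these windows.
ZNF564: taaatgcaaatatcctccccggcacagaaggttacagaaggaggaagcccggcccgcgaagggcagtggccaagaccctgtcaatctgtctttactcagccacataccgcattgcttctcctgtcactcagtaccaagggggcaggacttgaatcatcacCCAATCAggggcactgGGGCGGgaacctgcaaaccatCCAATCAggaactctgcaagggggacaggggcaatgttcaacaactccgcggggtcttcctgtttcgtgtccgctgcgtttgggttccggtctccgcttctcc
ZNF543: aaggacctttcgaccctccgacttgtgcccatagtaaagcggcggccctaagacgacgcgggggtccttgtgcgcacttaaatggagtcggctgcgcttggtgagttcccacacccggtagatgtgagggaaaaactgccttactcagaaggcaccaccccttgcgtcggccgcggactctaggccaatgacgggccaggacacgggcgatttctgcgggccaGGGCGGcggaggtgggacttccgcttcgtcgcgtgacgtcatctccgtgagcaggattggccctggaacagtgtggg
ZNF93: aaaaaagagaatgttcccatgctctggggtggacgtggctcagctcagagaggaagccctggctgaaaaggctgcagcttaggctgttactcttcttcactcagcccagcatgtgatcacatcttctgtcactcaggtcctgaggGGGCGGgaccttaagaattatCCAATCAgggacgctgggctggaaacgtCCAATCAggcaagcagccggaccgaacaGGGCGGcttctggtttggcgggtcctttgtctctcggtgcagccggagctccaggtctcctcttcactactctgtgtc
ZNF416: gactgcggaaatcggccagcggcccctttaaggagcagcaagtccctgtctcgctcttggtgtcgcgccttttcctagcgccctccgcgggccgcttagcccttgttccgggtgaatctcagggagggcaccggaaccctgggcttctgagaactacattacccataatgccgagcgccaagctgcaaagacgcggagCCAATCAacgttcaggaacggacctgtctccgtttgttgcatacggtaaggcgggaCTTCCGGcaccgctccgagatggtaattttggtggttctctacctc
The windows of ZNF564 and ZNF93 each held CCAATCA at 2 places, and that of ZNF416 held it once. CCAATCA was found in 21.2% of the 311 members with a promoter in the RefSeq table, against 9.34% of the 10439 promoters of genes tested and 7.28% of all 27305. It was in 27.3% of the 205 promoters of members with a KRAB box, in 9.43% of the 106 without one, and in 35.6% of the 104 of members that were higher in both treatments. This motif was added after the printed promoters had been seen. Those of ZNF564, ZNF93 and ZNF416, which hold it, are among the promoters of members higher in both treatments. The 35.6% is thus not independent of that choice. CCGGAAG was in 43.4% of the members, 47.8% of those with a KRAB box and 34.9% of those without, against 18.7% of the genes tested. CAGGTG, the E-box form to which SNAIL binds, was in 17.4% of the members, 13.5% of those higher in both treatments and 18.6% of the genes tested. GGGCGG stood at 65.9% of the members and 69.7% of the genes tested, and TATAAA at 2.89% and 5.46%. The members' promoters had a median of 22 CG dinucleotides, against 26 for the genes tested. These are matches of letters in a window and not measured binding sites.

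Libraries held 28673940 to 43027217 estimated counts, and 14135 genes, with all 354 members among them, passed the filter on low counts and were tested. The smallest count of a member in a library was 47. Library CPM from here on are scaled by the trimmed mean of M-values (TMM), which corrects each library's total for its composition. ACSL4 had 29.5, 23.7 and 27.6 CPM in the knockdown libraries, 333, 350 and 360 CPM with PRGL493 and 342, 339 and 366 CPM in the controls, so the hairpin lowered the target's RNA (-3.69 ± 0.07 log2, SE; edgeR quasi-likelihood test, adjusted p = 6.04e-16) and with PRGL493 it was not called (adjusted p = 0.952). SNAI1 had 1.87, 2.50 and 2.15 CPM in the knockdown libraries, 2.75, 2.24 and 2.54 CPM with PRGL493 and 11.1, 10.6 and 10.4 CPM in the controls, and was lower in both treatments. The cells had the mesenchymal markers of this line (VIM at 1610 to 1810 CPM and CD44 at 1260 to 1560 CPM over the 9 libraries), with ESR1, PGR, FOXA1 and KRT5 under 0.2 CPM, though ERBB2 reached 68.1 to 104 CPM. Of the other genes expected to be low or absent, GATA3 had 10.9 to 15.2 CPM, CDH1 0.42 to 2.04 CPM and ESRP1 up to 0.973 CPM. Among markers of blood, endothelium, liver, muscle and fat, CD14 reached 19.6 to 41.0 CPM; the summed level of these markers was 36.1 to 43.4 CPM in the knockdown, 22.3 to 25.4 CPM with PRGL493 and 26.7 to 31.2 CPM in the controls, and its part in the results was not tested. A fitted trend with transcript length and GC content ran in opposite directions in the knockdown libraries: it raised the members of replicate 1 by a median of 0.0577 on the log2 scale and lowered those of replicate 2 by 0.0523. With the trend removed, 175 members were called higher and 17 lower in the knockdown (49.4% and 4.80%), where 20.9% of all genes were higher and 16.8% lower.

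The median member averaged 10.9 CPM in the knockdown, 10.9 CPM with PRGL493 and 9.19 CPM in the controls, and 169 of the 354 lay under 10 CPM over all libraries and 25 above 50 CPM. Members with a KRAB box had a median level of 8.31 CPM and those without one 18.3 CPM; per kilobase of transcript the medians were 2.12 and 4.47 CPM per kb. The median coefficient of variation among the 3 libraries of a group was 8.26% in the knockdown, 5.87% with PRGL493 and 6.41% in the controls.

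The 6 members with the highest CPM (ZNF146, ZNF217, ZNF395, ZNF664, ZNF106 and ZNF185) had no KRAB box, and 3 of them were called in neither treatment. ZNF217, an oncogene amplified in many breast cancers (chr20:53567065-53609907), had 168, 146 and 163 CPM in the knockdown libraries, 161, 163 and 164 CPM with PRGL493 and 169, 167 and 170 CPM in the controls. Its libraries overlapped between the knockdown and the controls, and neither treatment was called (adjusted p = 0.245 and 0.414). ZNF395, with 151, 152 and 164 CPM in the knockdown libraries, 152, 153 and 148 CPM with PRGL493 and 156, 152 and 150 CPM in the controls, and ZNF664, with 146, 135 and 142 CPM in the knockdown libraries, 144, 145 and 139 CPM with PRGL493 and 132, 136 and 140 CPM in the controls, were not called either. Per kilobase, ZNF146 was the highest of the 6 members with the most counts, at 46.5 CPM per kb over all libraries, and ZNF106 the lowest, at 10.2 CPM per kb.

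Many more numbered ZNF genes were higher than lower in the ACSL4 knockdown. Among the 354 members, 154 were higher and 19 lower in the knockdown than in the controls and 181 were not called (edgeR quasi-likelihood test, Benjamini-Hochberg adjusted p below 0.05 over all genes tested). Over all 14135 genes, 14.7% were higher and 15.3% lower, against 43.5% and 5.37% of the members. The members' median log2 fold change was 0.205, that of all genes 0.000963. The 3 knockdown libraries lay wholly above the 3 controls for 162 members and wholly below for 27, where 20.8% and 21.2% of all genes did so. Changes were moderate. At 2-fold or more, 8 of the 354 members were called, all with a KRAB box. A similar share of all genes, 331 of the 14135 (2.34%), was called at that size. The largest fall among the members was -0.61 ± 0.10 log2. All genes tested include many at lower levels. Of the 11094 other genes at 3 CPM or more, 114 were called at 2-fold or more, a smaller share than of the members.

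With PRGL493 most called members were higher as well. Here 185 were higher, 14 lower and 155 not called, that is 52.3% and 3.95% of the members, where 21.4% of all genes were higher and 20.4% lower. The median log2 fold change was 0.282 for the members and 0.0094 for all genes. The treated libraries lay wholly above the controls for 215 members and wholly below for 24, against 30.1% and 27.2% of all genes. Only ZNF114 and ZNF250 passed 2-fold, where 3.69% of all genes did, and 186 of the 11094 other genes at 3 CPM or more. Both treatments were set against the same 3 control libraries, so a low or high control moves both comparisons together. Side by side, 116 members were higher in both treatments, 38 in the knockdown alone and 65 with PRGL493 alone; 3 were lower in both, 12 lower in the knockdown alone and 11 lower with PRGL493 alone. Another 4 were lower in the knockdown and higher with PRGL493, none the reverse, and 105 were called in neither. Of all 14135 genes, 722 were higher in both treatments, 767 lower in both, 367 lower in the knockdown and higher with PRGL493, and 342 the reverse. Higher in both were thus 32.8% of the members and 5.11% of all genes.

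The summed share of a library's counts taken by the members showed the shift without any test. Members took 0.681%, 0.611% and 0.653% of all counts in the knockdown libraries, 0.658%, 0.672% and 0.673% with PRGL493 and 0.594%, 0.585% and 0.600% in the controls. Every treated library lay above every control, with replicate 2 of the knockdown the nearest to them.

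**Figure D1:**
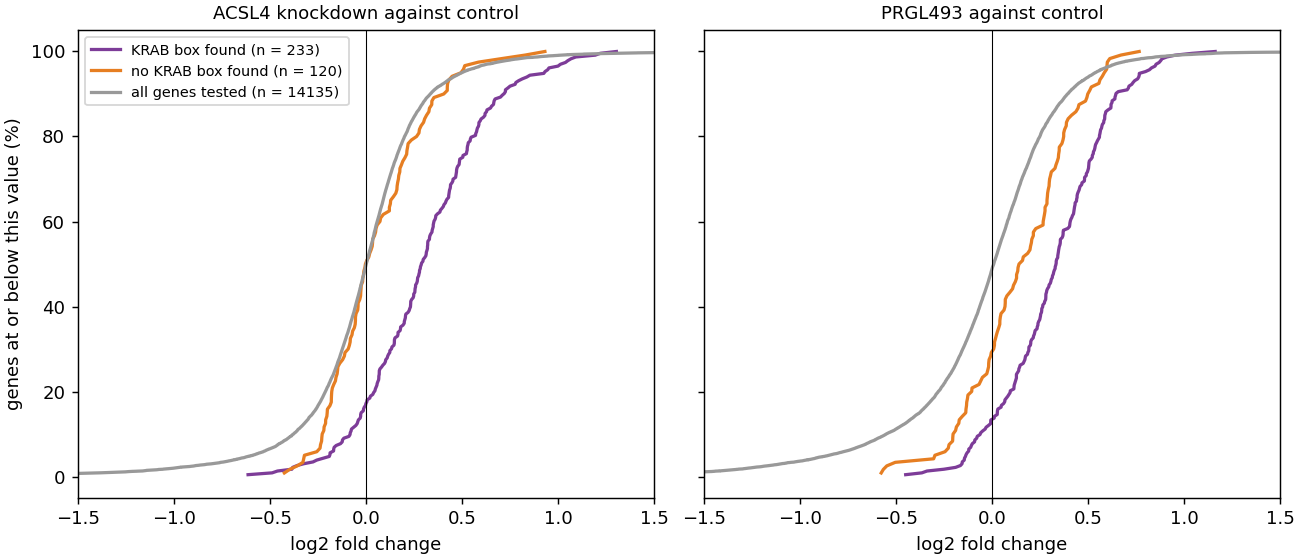
Cumulative share of genes (percent, vertical) at or below each fitted log2 fold change against the controls (horizontal; the few genes past the ends of the axis are not shown) for ACSL4 knockdown (left) and PRGL493 (right), for 233 members with a KRAB box, 120 without one and all 14135 genes tested. The curve of the KRAB members lies to the right in both panels, with medians of 0.289 and 0.334. The members without a KRAB box have a median near that of all genes in the knockdown (0.00021 against 0.000963). With PRGL493 their median lies between the others (0.15).

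Members with a KRAB box were called higher more often than those without one, and the calls leaned higher in both sets. Of these 233, 123 were higher and 7 lower in the knockdown, with a median log2 fold change of 0.289, while of the 120 without one 30 were higher and 12 lower, with a median of 0.00021. With PRGL493 the KRAB members split into 134 higher and 3 lower (57.5% and 1.29%, median 0.334). The others split into 50 higher and 11 lower (41.7% and 9.17%, median 0.15), where 21.4% of all genes were higher and 20.4% lower. The lean of the KRAB members was seen on chromosome 19 and away from it. On chromosome 19, 89 of the 151 KRAB members were higher in the knockdown and 3 lower (58.9% and 1.99%). Of the 26 there without a KRAB box, 5 were higher (19.2%) and none lower. On the other chromosomes, 34 of 82 KRAB members were higher and 4 lower (41.5% and 4.88%), against 25 higher and 12 lower of 94 without (26.6% and 12.8%). For PRGL493 the same 4 groups had 97 higher and 3 lower, 10 higher and 1 lower, 37 higher and none lower, and 40 higher and 10 lower. Their shares called higher were 64.2%, 38.5%, 45.1% and 42.6%. Off chromosome 19 the share called higher with PRGL493 was thus similar with and without a KRAB box. Other genes of chromosome 19 at 3 CPM or more, 598 of them, did not lean higher in the knockdown. There 76 were higher and 97 lower (12.7% and 16.2%, against 14.7% and 15.3% of all genes). With PRGL493 177 were higher and 112 lower (29.6% and 18.7%, against 21.4% and 20.4% of all genes). The difference between members with and without a KRAB box is given as counts and medians and was not tested.

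In single libraries the median KRAB member was shifted, though not every member was. Of the KRAB members, 82.8% had a fold change above 0 in the knockdown and 86.7% with PRGL493, against 50.2% and 51.3% of all genes. Relative to the mean of the 3 controls, the median KRAB member stood at 0.378, 0.206 and 0.27 log2 in the knockdown libraries, at 0.287, 0.32 and 0.322 with PRGL493 and at -0.00707, -0.00537 and 0.0172 in the controls. All 6 treated libraries lay above the controls, and the knockdown libraries spread more widely than those with PRGL493. For members without a KRAB box the medians were 0.0482, -0.0399 and 0.00287 in the knockdown, 0.123, 0.159 and 0.104 with PRGL493 and 0.0181, -0.0142 and -0.00567 in the controls. There the knockdown libraries lay around the controls and the PRGL493 libraries above them.

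**Figure D2:**
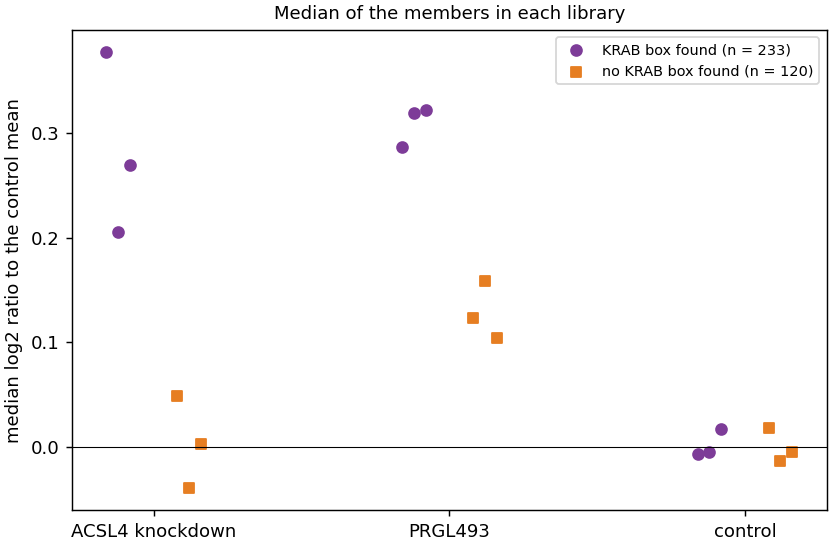
Median over members of the log2 ratio to the mean of the 3 controls (vertical), per library, for 233 members with a KRAB box (circles) and 120 without one (squares); groups run from ACSL4 knockdown through PRGL493 to control. Knockdown circles sit at 0.206 to 0.378 and PRGL493 circles at 0.287 to 0.322, all above the control circles at -0.00707 to 0.0172.

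Level and finger number went with the counts as well. Over all genes, 14.7% were higher and 15.3% lower in the knockdown, and 21.4% and 20.4% with PRGL493. Among the 118 members with the lowest mean level, 56 were higher (47.5%) and 3 lower in the knockdown and 63 higher (53.4%) and 1 lower with PRGL493. Among the 118 with the highest, 41 were higher and 11 lower in the knockdown (34.7% and 9.32%). With PRGL493 52 of these were higher and 11 lower (44.1% and 9.32%). Of the 205 members with 10 or more fingers, 102 were higher (49.8%) and 4 lower in the knockdown and 115 (56.1%) and 4 with PRGL493. Of the 142 with 1 to 9 fingers, 49 were higher (34.5%) and 13 lower in the knockdown and 66 (46.5%) and 9 with PRGL493. These traits go together, since KRAB members were lower in level and had more fingers, and their separate parts were not tested. Among the 18 members with a SCAN domain, which include ZNF24, 7 were higher and 2 lower in the knockdown and 8 were higher and none lower with PRGL493.

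Counting could mix some of these genes with others. Exons of 174 members overlap another gene, of 110 one on the opposite strand, and whether counting used the strand is not given in the sources used here. Among the 180 members with no such overlap, 77 were higher (42.8%) and 12 lower in the knockdown and 96 higher (53.3%) and 10 lower with PRGL493. Of the 174, 77 were higher (44.3%) and 7 lower in the knockdown and 89 (51.1%) and 4 with PRGL493. Over all genes, 14.7% and 21.4% were higher in the 2 treatments and 15.3% and 20.4% lower. Estimated counts were not whole numbers in at least 1 library for 147 members, as happens where a read fits several genes, and these genes arose by duplication. The 207 members with whole counts throughout had 92 higher (44.4%) and 10 lower in the knockdown and 113 higher (54.6%) and 9 lower with PRGL493.

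The largest rises in the knockdown were in KRAB zinc finger genes of chromosome 19, with ZNF595 on chromosome 4 as the 1 exception among the first 10. ZNF564 (chr19:12525370-12551542), whose product has 15 fingers by pattern, rose the most, with 9.15, 9.43 and 8.59 CPM in the knockdown libraries, 6.66, 6.96 and 7.09 CPM with PRGL493 and 3.41, 4.22 and 3.39 CPM in the controls. All 6 treated libraries lay above the 3 controls, and the knockdown libraries above those with PRGL493. The log2 fold change was 1.30 ± 0.11 (SE) in the knockdown (edgeR adjusted p = 1.23e-07) and 0.91 ± 0.11 with PRGL493 (adjusted p = 7.33e-06). Its exons overlap the gene model AC010422.6 on the same strand over 2385 bases, so reads of the pair cannot be told apart.

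ZNF93 (chr19:19900913-19963464) encodes a repressor of LINE-1 elements of the L1PA group. It had 10.5, 8.09 and 8.44 CPM in the knockdown libraries, 6.20, 7.10 and 8.30 CPM with PRGL493 and 3.57, 3.44 and 4.62 CPM in the controls. The treated libraries lay wholly above the controls in both comparisons, and the treatments overlapped each other. Its log2 fold change was 1.22 ± 0.14 in the knockdown (edgeR adjusted p = 9.32e-06) and 0.88 ± 0.15 with PRGL493 (adjusted p = 0.000163). ZNF91, which represses SVA elements and was named for that role after its values were seen, lies in the same cluster and had 24.5, 17.0 and 22.0 CPM in the knockdown libraries, 19.9, 18.98 and 24.7 CPM with PRGL493 and 13.2, 14.3 and 13.7 CPM in the controls. It too had no overlap with the controls (log2 fold change 0.63 ± 0.13 and 0.62 ± 0.13, edgeR adjusted p = 0.00294 in the knockdown and 0.00193 with PRGL493).

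ZNF595 (chr4:53285-88211) had 9.44, 8.01 and 8.69 CPM in the knockdown libraries, 6.37, 6.15 and 7.40 CPM with PRGL493 and 4.16, 3.34 and 3.94 CPM in the controls. ZNF627 (chr19:11559374-11619135) had 16.4, 15.3 and 15.2 CPM in the knockdown libraries, 11.6, 11.6 and 11.6 CPM with PRGL493 and 7.66, 6.88 and 7.46 CPM in the controls. Both formed 3 separate levels, knockdown above PRGL493 above control. Their knockdown log2 fold changes were 1.19 ± 0.12 and 1.09 ± 0.08 (edgeR adjusted p = 1.02e-06 and 3.07e-08), and their PRGL493 values were 0.80 ± 0.12 and 0.66 ± 0.08 (adjusted p = 6.23e-05 and 1.02e-05).

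The same order was seen in ZNF555, ZNF14, ZNF799 and ZNF823. ZNF555 had 10.1, 12.1 and 12.1 CPM in the knockdown libraries, 9.53, 9.40 and 8.83 CPM with PRGL493 and 5.63, 5.22 and 5.50 CPM in the controls, and ZNF14 had 8.42, 8.88 and 8.23 CPM in the knockdown libraries, 6.15, 5.84 and 6.23 CPM with PRGL493 and 4.09, 4.51 and 3.73 CPM in the controls. In each, every knockdown library lay above every PRGL493 library and those above every control. ZNF823 had 10.2, 9.88 and 9.03 CPM in the knockdown libraries, 6.42, 7.83 and 6.63 CPM with PRGL493 and 4.78, 5.84 and 4.43 CPM in the controls. ZNF799, whose mean over all libraries was just inside the limit of 3 CPM, had 3.92, 4.22 and 4.13 CPM in the knockdown libraries, 2.92, 2.97 and 3.25 CPM with PRGL493 and 1.54, 2.11 and 2.41 CPM in the controls. It is a member because of its treated libraries, since its controls averaged 2.02 ± 0.444 CPM (SD, n = 3). Over these 4 genes the knockdown log2 fold changes ran from 0.95 ± 0.12 to 1.07 ± 0.10, with edgeR adjusted p between 4.74e-07 and 0.000142.

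ZNF416 and ZNF671 rose in both treatments. ZNF416 (chr19:57571566-57578927) had 11.6, 12.7 and 13.1 CPM in the knockdown libraries, 10.7, 11.9 and 11.1 CPM with PRGL493 and 6.42, 6.003 and 5.81 CPM in the controls. ZNF671, a gene often methylated in carcinomas, had 4.40, 5.40 and 4.74 CPM in the knockdown libraries, 4.52, 4.89 and 3.69 CPM with PRGL493 and 2.29, 2.37 and 2.60 CPM in the controls. Its control mean, 2.42 CPM, lay under the limit of 3 CPM, so its treated libraries made it a member. For both, all treated libraries lay above the controls and the treatments overlapped. ZNF416 changed by 1.04 ± 0.09 log2 in the knockdown (edgeR adjusted p = 2.19e-07) and 0.88 ± 0.09 with PRGL493 (adjusted p = 1.23e-06), and the difference between the treatments was 0.16 ± 0.08 (adjusted p = 0.125). Exons of ZNF416 overlap those of ZIK1 on the opposite strand over 256 bases.

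**Figure D3:**
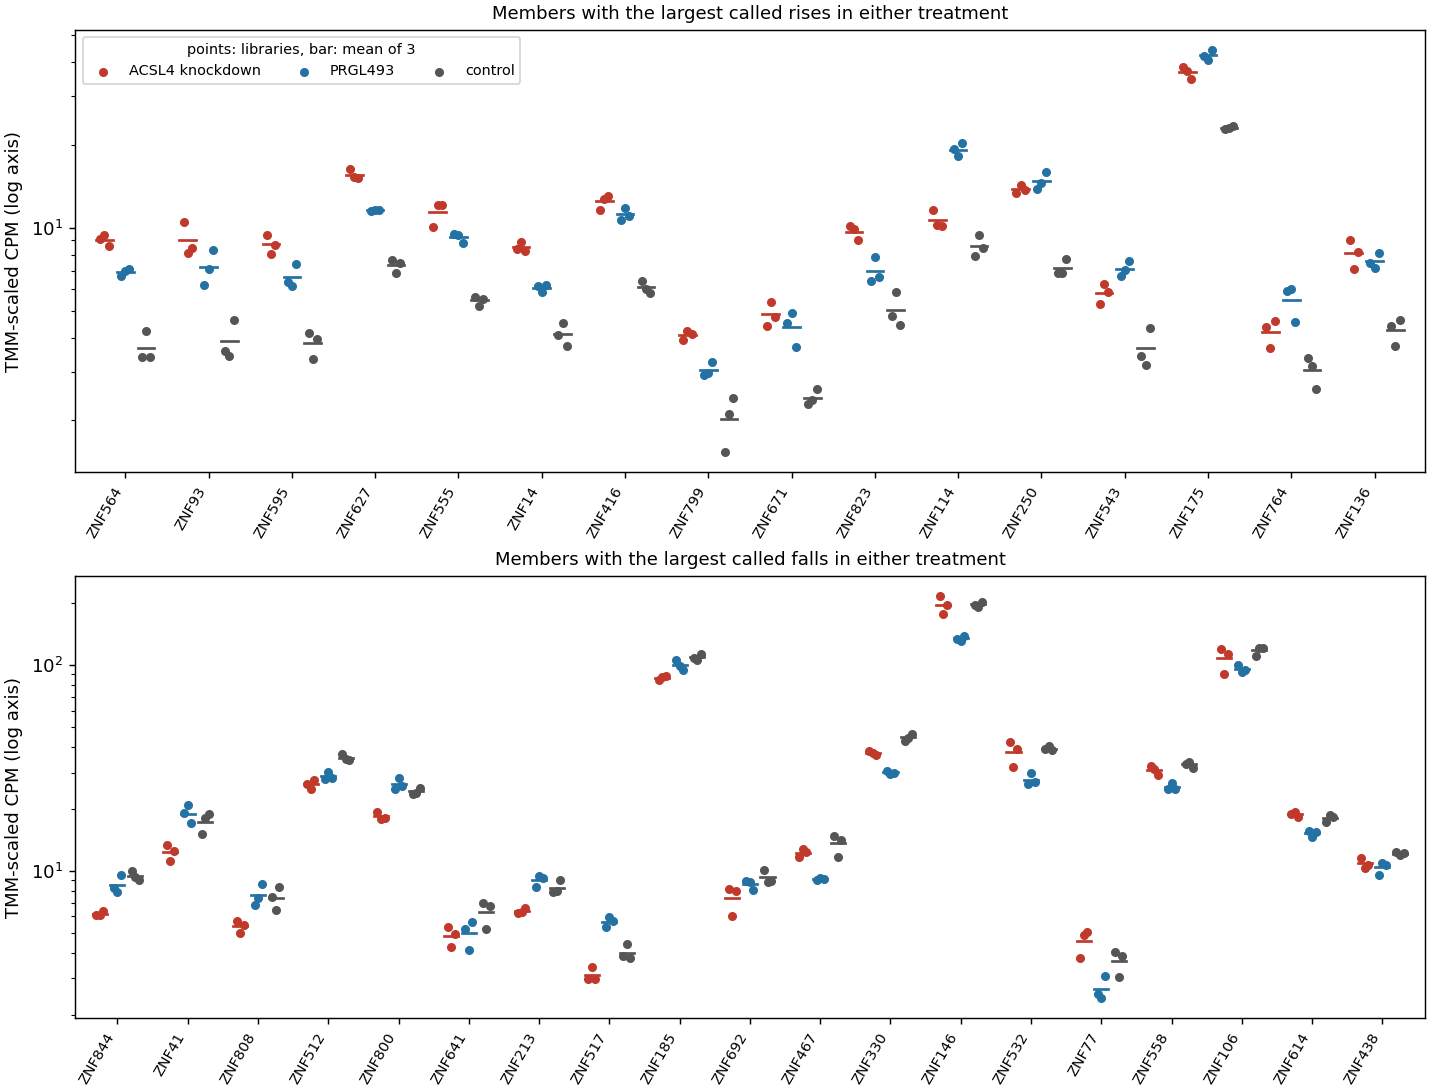
TMM-scaled CPM (vertical, log axis) in each library for members with the largest called rises (top) and falls (bottom) in either treatment; within a gene the columns are ACSL4 knockdown, PRGL493 and control, points are libraries and bars are means of 3. In the top panel the control points lie below those of at least 1 treatment for each gene, while in the bottom panel most genes fall in 1 treatment only, as ZNF844 and ZNF41 in the knockdown and ZNF146 and ZNF532 with PRGL493.

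With PRGL493 the largest rise was in ZNF114 (chr19:48270102-48287608), whose product has a KRAB box and only 3 fingers by pattern. It had 11.6, 10.3 and 10.1 CPM in the knockdown libraries, 19.3, 18.2 and 20.3 CPM with PRGL493 and 7.89, 9.44 and 8.47 CPM in the controls. The PRGL493 libraries lay well above all the others, and the knockdown libraries just above the controls. The log2 fold change was 1.16 ± 0.09 with PRGL493 (edgeR adjusted p = 3.71e-08) and 0.31 ± 0.09 in the knockdown (adjusted p = 0.0172). The knockdown call was lost without control replicate 1, without control replicate 3 or without knockdown replicate 1, with adjusted p up to 0.088. An antisense gene, ZNF114-AS1, overlaps its exons over 114 bases.

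ZNF250 and ZNF543 followed. ZNF250 had 13.4, 14.3 and 13.7 CPM in the knockdown libraries, 13.9, 14.5 and 15.9 CPM with PRGL493 and 6.88, 6.88 and 7.70 CPM in the controls; ZNF543 had 5.31, 6.27 and 5.85 CPM in the knockdown libraries, 6.69, 7.06 and 7.56 CPM with PRGL493 and 3.44, 3.18 and 4.34 CPM in the controls. Neither overlapped with the controls in either treatment. ZNF250 differed between the treatments by -0.10 ± 0.08 log2 (edgeR adjusted p = 0.332) and changed by 1.04 ± 0.09 with PRGL493 (adjusted p = 1.01e-07) and 0.95 ± 0.09 in the knockdown (adjusted p = 4.55e-07). ZNF543 changed by 0.95 ± 0.13 with PRGL493 (adjusted p = 1.68e-05).

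ZNF175 (OTK18), known as a repressor of the HIV promoter in macrophages, was the most abundant of the 10 largest rises with PRGL493. Its levels were 38.4, 37.0 and 34.7 CPM in the knockdown libraries, 42.003, 40.6 and 44.1 CPM with PRGL493 and 22.9, 23.1 and 23.4 CPM in the controls. The 3 groups did not overlap, and the spread within each was small beside the gaps (log2 fold change 0.87 ± 0.06 with PRGL493 and 0.67 ± 0.06 in the knockdown, edgeR adjusted p = 1.61e-08 and 6.28e-07). ZNF764 had 4.36, 3.66 and 4.59 CPM in the knockdown libraries, 5.89, 6.01 and 4.55 CPM with PRGL493 and 3.37, 3.15 and 2.60 CPM in the controls, and ZNF136 had 9.03, 7.06 and 8.18 CPM in the knockdown libraries, 7.44, 7.13 and 8.08 CPM with PRGL493 and 4.39, 3.73 and 4.62 CPM in the controls. ZNF764 was called in the knockdown too (adjusted p = 0.0251), though that call was lost without control replicate 2, without control replicate 3 or without knockdown replicate 3, with adjusted p up to 0.125.

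Falls were fewer and, in the knockdown, often seen in that treatment alone. ZNF844 (chr19:12064699-12081565) fell the most, with 6.09, 6.06 and 6.39 CPM in the knockdown libraries, 8.22, 7.90 and 9.57 CPM with PRGL493 and 10.02, 9.35 and 9.02 CPM in the controls. Its knockdown libraries lay below all the others, while those with PRGL493 overlapped the controls. The log2 fold change was -0.61 ± 0.10 in the knockdown (edgeR adjusted p = 0.00018) and -0.14 ± 0.10 with PRGL493 (adjusted p = 0.249). It lies in a cluster in which 14 of the 17 members were higher in the knockdown (82.4%, against 14.7% of all genes).

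ZNF41 on the X chromosome had 13.4, 11.1 and 12.5 CPM in the knockdown libraries, 18.995, 20.8 and 17.1 CPM with PRGL493 and 15.1, 18.1 and 18.8 CPM in the controls. ZNF808, which represses MER11 elements and whose loss in humans is linked to a missing pancreas, had 5.70, 5.01 and 5.44 CPM in the knockdown libraries, 6.83, 7.38 and 8.58 CPM with PRGL493 and 7.43, 6.42 and 8.38 CPM in the controls. ZNF800, known to restrain enteroendocrine differentiation, had 19.4, 17.8 and 18.1 CPM in the knockdown libraries, 24.8, 28.2 and 25.8 CPM with PRGL493 and 23.7, 23.8 and 25.3 CPM in the controls. In all 3 genes the knockdown libraries lay below every control and every PRGL493 library. Their knockdown log2 fold changes were -0.49 ± 0.10, -0.46 ± 0.12 and -0.40 ± 0.07 (edgeR adjusted p = 0.00146, 0.00796 and 0.000511). ZNF808 shares 712 exonic bases with ZNF701 on the same strand, and its call was lost without control replicate 3 (adjusted p = 0.0587).

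ZNF213 had 6.20, 6.27 and 6.62 CPM in the knockdown libraries, 8.34, 9.47 and 9.26 CPM with PRGL493 and 7.86, 7.98 and 9.02 CPM in the controls, lower in the knockdown (log2 fold change -0.38 ± 0.10, edgeR adjusted p = 0.0068), a call that was lost, at adjusted p = 0.0547, once the trend with length and GC content was taken out. ZNF185, the LIM domain gene, had 84.3, 87.6 and 88.5 CPM in the knockdown libraries, 105, 99.0 and 94.4 CPM with PRGL493 and 108, 106 and 113 CPM in the controls. It was lower in the knockdown (-0.33 ± 0.05, adjusted p = 0.00028), and with PRGL493 it was not called (adjusted p = 0.0638) though its 3 libraries lay below the controls. ZNF641, ZNF692 and ZNF517 were called lower near the threshold (adjusted p = 0.0449, 0.0387 and 0.0395), and these calls were lost under 8, 8 and 12 of the other settings tried.

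With PRGL493 the fall in ZNF146 stood out by the level of the gene. ZNF146 (chr19:36214602-36238774), whose product is little more than a row of 9 fingers, had 216, 176 and 196 CPM in the knockdown libraries, 134, 131 and 138 CPM with PRGL493 and 196, 192 and 202 CPM in the controls. PRGL493 libraries lay below all the others, and the knockdown libraries spread around the controls. The log2 fold change was -0.55 ± 0.06 with PRGL493 (edgeR adjusted p = 3.36e-06) and -0.01 ± 0.06 in the knockdown (adjusted p = 0.953).

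ZNF467, whose mouse counterpart favours fat over bone cell fate, fell the most with PRGL493, with 11.6, 12.7 and 12.4 CPM in the knockdown libraries, 8.97, 9.19 and 9.17 CPM with PRGL493 and 14.8, 11.7 and 14.2 CPM in the controls. ZNF532, a partner of the chromatin reader ZMYND8, had 42.4, 31.9 and 39.0 CPM in the knockdown libraries, 26.5, 29.9 and 26.9 CPM with PRGL493 and 39.1, 40.3 and 38.4 CPM in the controls. ZNF558, which represses the mitophagy gene SPATA18 in human neural progenitors, had 32.5, 31.4 and 29.2 CPM in the knockdown libraries, 24.9, 26.8 and 24.9 CPM with PRGL493 and 33.1, 33.8 and 31.7 CPM in the controls. In each the PRGL493 libraries lay below every control and every knockdown library, and the knockdown was not called. Their log2 fold changes with PRGL493 were -0.58 ± 0.09, -0.50 ± 0.09 and -0.36 ± 0.07 (edgeR adjusted p = 0.000121, 0.000238 and 0.000299). ZNF106 (-0.30 ± 0.09), ZNF614 (-0.25 ± 0.07), ZNF77 (-0.45 ± 0.16) and ZNF438 (-0.23 ± 0.08) fell as well, with adjusted p of 0.0122, 0.00958, 0.035 and 0.0403. The ZNF438 call was lost under 8 other settings, the ZNF77 call under 6, and the ZNF106 call without control replicate 3 (adjusted p = 0.051).

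Only ZNF330, ZNF512 and ZNF706 were lower in both treatments, and none of them has a KRAB box. ZNF330, the nucleolar protein, had 38.0, 37.2 and 36.4 CPM in the knockdown libraries, 30.7, 29.7 and 29.7 CPM with PRGL493 and 42.6, 44.3 and 46.4 CPM in the controls. ZNF512 had 26.3, 25.1 and 27.8 CPM in the knockdown libraries, 27.8, 30.1 and 28.3 CPM with PRGL493 and 36.9, 34.8 and 34.6 CPM in the controls. ZNF706, whose mouse counterpart restrains Klf4 in embryonic stem cells, had 65.6, 73.7 and 70.6 CPM in the knockdown libraries, 70.4, 66.9 and 73.6 CPM with PRGL493 and 82.1, 82.7 and 81.3 CPM in the controls. In all 3 both treatments lay below every control. The knockdown and PRGL493 log2 fold changes were -0.26 ± 0.06 and -0.57 ± 0.06 for ZNF330, -0.43 ± 0.06 and -0.30 ± 0.06 for ZNF512 and -0.23 ± 0.06 and -0.22 ± 0.06 for ZNF706, with edgeR adjusted p between 1.14e-06 and 0.00642.

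The treatments also differed directly. Of the 354 members, 50 were higher and 83 lower in the knockdown than with PRGL493, while 24.4% of all genes were higher and 26% lower. That is 14.1% and 23.4% of the members, so their share of calls was below that of all genes on both sides (50.4% of all genes were called in 1 direction or the other). The median log2 difference was -0.0356 for the members and -0.00891 for all genes. Under upper-quartile scaling the split of members turned, to 72 higher and 63 lower, with a median of 0.0193. Among KRAB members 36 were higher and 42 lower in the knockdown than with PRGL493, among the others 13 and 41. Among those without a KRAB box, called differences were thus mostly lower in the knockdown.

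Members called in opposite directions against the controls were ZNF24, ZNF318, ZNF517 and ZNF687, each lower in the knockdown and higher with PRGL493. ZNF24, a SCAN domain factor known to repress VEGFA, had 84.3, 77.3 and 76.2 CPM in the knockdown libraries, 113, 114 and 124 CPM with PRGL493 and 90.1, 88.7 and 96.4 CPM in the controls. ZNF318, needed in B cells for the switch between IgM and IgD transcripts, had 51.1, 40.1 and 48.6 CPM in the knockdown libraries, 72.7, 74.4 and 68.0 CPM with PRGL493 and 55.9, 59.3 and 59.5 CPM in the controls. ZNF687, another partner of ZMYND8, had 36.5, 37.0 and 37.8 CPM in the knockdown libraries, 52.3, 58.6 and 48.2 CPM with PRGL493 and 42.4, 40.6 and 43.6 CPM in the controls. In all 3 the knockdown lay below every control and PRGL493 above every control. Direct differences between the treatments were -0.56 ± 0.06, -0.62 ± 0.08 and -0.52 ± 0.07 log2 (edgeR adjusted p = 8.94e-07, 4.57e-06 and 9.67e-06). ZNF517 had 2.99, 3.40 and 2.98 CPM in the knockdown libraries, 5.30, 5.94 and 5.73 CPM with PRGL493 and 3.83, 4.41 and 3.76 CPM in the controls, a difference of -0.86 ± 0.12 (adjusted p = 2.02e-05). The fall in the knockdown against the controls was near the threshold for ZNF687 (adjusted p = 0.0475) and lost under 10 other settings, with adjusted p up to 0.521, and for ZNF24 it was lost without control replicate 3 or knockdown replicate 3, with adjusted p up to 0.0775.

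Among members higher in the knockdown than with PRGL493, ZNF675, whose product (TIZ) inhibits TRAF6 signalling, had 10.6, 10.9 and 9.87 CPM in the knockdown libraries, 6.76, 6.36 and 5.82 CPM with PRGL493 and 5.24, 5.52 and 6.60 CPM in the controls. ZNF232, a SCAN domain gene, had 6.14, 6.19 and 5.85 CPM in the knockdown libraries, 3.53, 4.02 and 3.66 CPM with PRGL493 and 4.26, 4.38 and 4.10 CPM in the controls. ZNF77 had 3.79, 4.85 and 5.05 CPM in the knockdown libraries, 2.53, 2.41 and 3.07 CPM with PRGL493 and 4.03, 3.05 and 3.85 CPM in the controls. Knockdown libraries lay above those with PRGL493 in each, with differences of 0.73 ± 0.10, 0.70 ± 0.11 and 0.77 ± 0.16 log2 (edgeR adjusted p = 2.15e-05, 4.93e-05 and 0.00062). ZNF44 and ZNF681 differed by 0.66 ± 0.12 and 0.58 ± 0.11 (adjusted p = 0.000214 and 0.000478). On the other side, ZNF414 had 4.81, 5.85 and 5.77 CPM in the knockdown libraries, 9.73, 10.3 and 9.29 CPM with PRGL493 and 7.53, 6.17 and 5.65 CPM in the controls, and ZNF688 had 2.81, 3.19 and 2.59 CPM in the knockdown libraries, 5.40, 4.51 and 4.27 CPM with PRGL493 and 3.44, 3.41 and 2.81 CPM in the controls. In both, PRGL493 lay above every other library, with differences of -0.84 ± 0.11 and -0.73 ± 0.14 (adjusted p = 1.49e-05 and 0.000411).

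Members of the gene clusters of chromosome 19 did not all move to the same extent. Runs of numbered ZNF genes whose neighbours start less than 500000 bases apart were taken as clusters. Members lay in 12 such clusters, and at 5 further places a numbered ZNF gene stood without another within that distance. Over all genes, 14.7% were higher and 15.3% lower in the knockdown, and 21.4% and 20.4% with PRGL493. The cluster at chr19:11483427-12640098, with ZNF627, ZNF823, ZNF136, ZNF799 and ZNF564, had 17 members. Of these, 14 were higher (82.4%) and 1 lower in the knockdown and 14 higher (82.4%) and none lower with PRGL493. The median log2 fold changes of this cluster were 0.587 and 0.481. The cluster at chr19:19668796-24129961, on the short arm near the centromere, which holds ZNF14, ZNF93, ZNF91, ZNF675 and ZNF681, had 21 members. In it 16 were higher (76.2%) and none lower in each treatment. Medians were 0.485 in the knockdown and 0.482 with PRGL493, and all 21 members had a fold change above 0 in both.

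The 5 clusters of the long arm with 12 or more members had smaller medians. At chr19:51571298-53580269, 15 of 33 members were higher (45.5%) and 1 lower in the knockdown, and 21 higher (63.6%) and 1 lower with PRGL493 (medians 0.263 and 0.329). At chr19:57191500-58481230, 21 of 34 were higher (61.8%) and 1 lower in the knockdown and 22 higher (64.7%) and none lower with PRGL493 (medians 0.345 and 0.405). Between them, the cluster at chr19:55476332-56671783 holds few KRAB genes, 3 of 12 members, and had 1 higher in the knockdown and 3 higher with PRGL493 (medians -0.0134 and 0.0594). At chr19:36182060-37817300, with ZNF146, 6 of 17 were higher in the knockdown (35.3%) and 9 higher (52.9%) and 1 lower with PRGL493. At chr19:43525497-44500524, 7 of 17 were higher in each treatment (41.2%) and none lower. On the short arm, the cluster at chr19:8509678-9793180 holds 7 KRAB genes among 9 members. In it 4 were higher (44.4%) and none lower in the knockdown and 5 higher (55.6%) and 1 lower with PRGL493 (medians -0.0306 and 0.273). Genes of a cluster are related by duplication, so they are not independent observations.

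**Figure D4:**
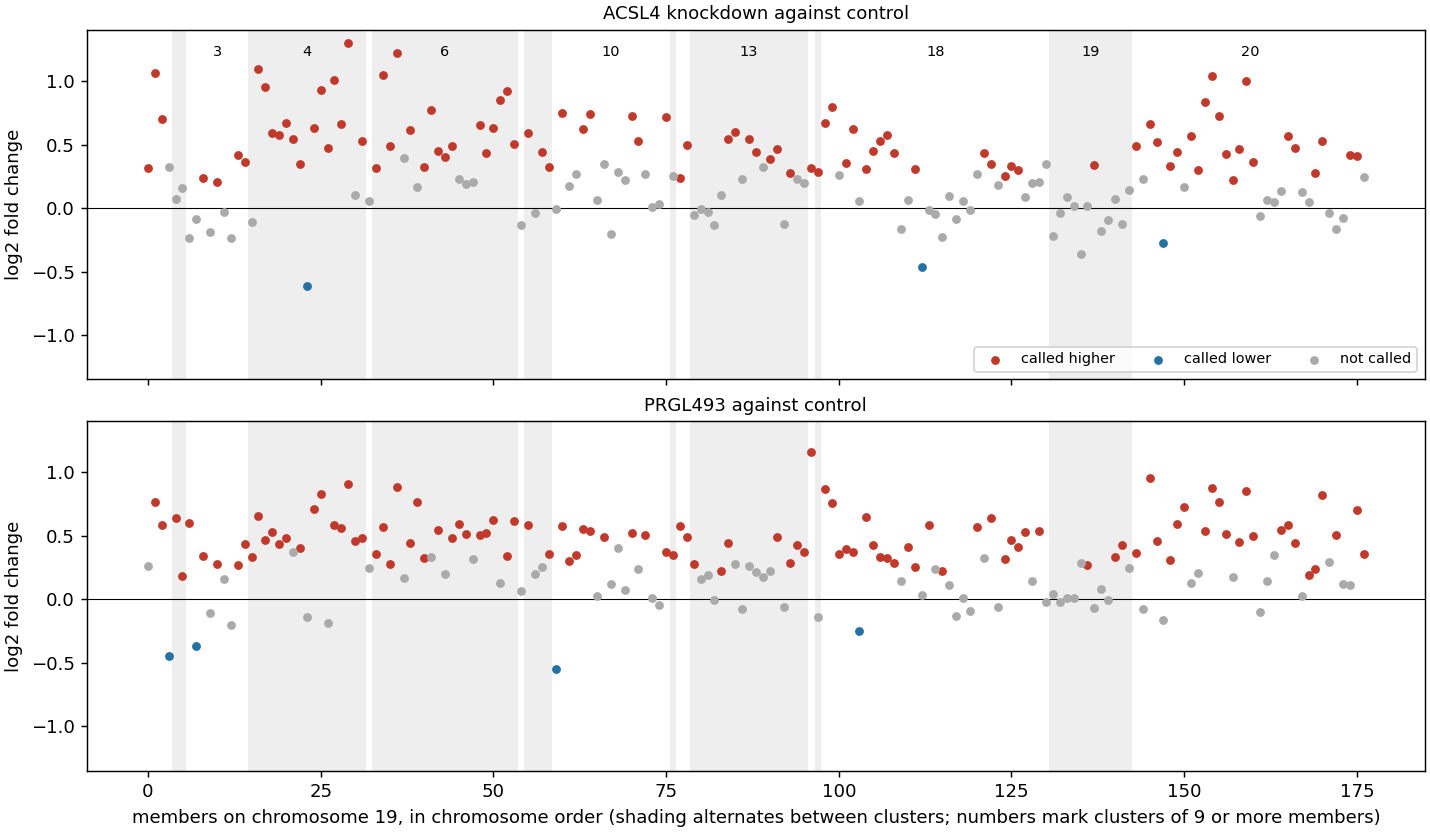
Log2 fold change against the controls (vertical) of the 177 members on chromosome 19, in chromosome order (horizontal, rank), for ACSL4 knockdown (top) and PRGL493 (bottom); colours mark the call, shading alternates between clusters and numbers mark clusters of 9 or more members. Points of clusters 4 and 6 lie mostly above 0 in both panels, with medians of 0.587 and 0.485 in the knockdown and 0.481 and 0.482 with PRGL493, while those of cluster 19 lie around 0.

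Members with a role in repression of their own kind or in known tools were looked at by name after their values were seen. ZNF274, which binds the 3′ ends of ZNF genes and brings SETDB1 there, had 43.5, 42.7 and 42.8 CPM in the knockdown libraries, 47.4, 48.8 and 46.4 CPM with PRGL493 and 42.3, 40.0 and 42.5 CPM in the controls. It was not called in the knockdown (log2 fold change 0.05 ± 0.06, edgeR adjusted p = 0.551) and was slightly higher with PRGL493 (0.19 ± 0.06, adjusted p = 0.0106). ZNF10 (KOX1), whose KRAB box is used in synthetic repressors, had 4.33, 4.01 and 4.10 CPM in the knockdown libraries, 3.43, 3.60 and 3.59 CPM with PRGL493 and 2.78, 1.95 and 3.58 CPM in the controls; it was higher in the knockdown (0.58 ± 0.17, adjusted p = 0.0154) and not called with PRGL493 (adjusted p = 0.116). Its control mean, 2.77 CPM, also lay under the limit of 3 CPM. ZNF143, an activator that binds many promoters and has no KRAB box, had 25.6, 25.3 and 27.9 CPM in the knockdown libraries, 23.5, 23.6 and 22.1 CPM with PRGL493 and 21.7, 23.5 and 22.8 CPM in the controls; it was higher in the knockdown (0.21 ± 0.07, adjusted p = 0.0251) and not called with PRGL493 (adjusted p = 0.812).

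The proteins through which KRAB zinc finger proteins repress were read as a list of 39 genes, of which 38 were tested. In the knockdown 6 were higher and 5 lower (15.8% and 13.2%), near the 14.7% and 15.3% of all genes. With PRGL493 12 were higher and 2 lower (31.6% and 5.26%, against 21.4% and 20.4% of all genes). The list had medians of 0.00372 and 0.0856, against 0.000963 and 0.0094 for all genes. TRIM28 itself had 213, 231 and 219 CPM in the knockdown libraries, 302, 296 and 287 CPM with PRGL493 and 244, 237 and 226 CPM in the controls. It was not called in the knockdown (-0.09 ± 0.05 log2, edgeR adjusted p = 0.188) and was higher with PRGL493 (0.33 ± 0.05, adjusted p = 6.74e-05). SETDB1 averaged 34.1 ± 1.12 CPM in the knockdown, 33.5 ± 1.71 CPM with PRGL493 and 29.3 ± 0.322 CPM in the controls (SD, n = 3 each) and was slightly higher in both (0.22 ± 0.06 and 0.19 ± 0.06, adjusted p = 0.0125 and 0.0181).

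Other heterochromatin genes of the list changed in 1 treatment or in both. CBX5, heterochromatin protein 1 alpha, was higher in the knockdown and not called with PRGL493 (105, 80.7 and 97.5 CPM in the knockdown libraries, 57.4, 61.8 and 63.2 CPM with PRGL493 and 62.7, 62.8 and 62.2 CPM in the controls; 0.59 ± 0.08 log2, edgeR adjusted p = 2.75e-05). UHRF1, DNMT1 and SUV39H1, which maintain DNA methylation or methylate histone H3 lysine 9, were higher with PRGL493 by 0.53 ± 0.06, 0.37 ± 0.06 and 0.65 ± 0.08 (adjusted p = 1.62e-06, 5.39e-05 and 1.03e-05), and UHRF1 was also higher in the knockdown (0.20 ± 0.06, adjusted p = 0.0133). EHMT2 (G9a) was lower in the knockdown (-0.24 ± 0.06, adjusted p = 0.00432) and higher with PRGL493 (0.32 ± 0.06, adjusted p = 0.000227). H3F3B, a gene of histone H3.3, was lower in both, with 316, 325 and 306 CPM in the knockdown libraries, 430, 441 and 441 CPM with PRGL493 and 592, 555 and 567 CPM in the controls.

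A list of 18 enzymes that demethylate histone H3 lysine 9 or write or erase acetylation or methylation of lysines 9 and 27 had 1 higher and 4 lower in the knockdown (5.56% and 22.2%, against 14.7% and 15.3% of all genes). With PRGL493 it had 6 higher and 1 lower (33.3% and 5.56%, against 21.4% and 20.4%). EZH2, which methylates lysine 27, was higher in both (0.29 ± 0.05 and 0.27 ± 0.05 log2, edgeR adjusted p = 0.000646 in the knockdown and 0.000849 with PRGL493). KDM4B, a lysine 9 demethylase, was lower in the knockdown (-0.22 ± 0.06, adjusted p = 0.0122) and higher with PRGL493 (0.35 ± 0.06, adjusted p = 0.000284). KDM6B, the 1 called lower with PRGL493, fell in both treatments (-0.30 ± 0.10 and -0.48 ± 0.11, adjusted p = 0.0445 in the knockdown and 0.00274 with PRGL493). PHF8 was lower in the knockdown alone (-0.33 ± 0.08, adjusted p = 0.00473) and KDM3B higher with PRGL493 alone (0.37 ± 0.06, adjusted p = 7.45e-05). None of these changes was tested for a link to the ZNF genes.

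Just inside the limit of 3 CPM were ZNF799, ZNF552 and ZNF771, with means over all libraries of 3.06, 3.08 and 3.11 CPM, and just outside were ZNF418, ZNF221 and ZNF488. ZNF552 had 3.28, 2.95 and 2.98 CPM in the knockdown libraries, 3.09, 3.25 and 3.41 CPM with PRGL493 and 2.95, 3.05 and 2.81 CPM in the controls, and ZNF771 had 2.55, 2.90 and 1.92 CPM in the knockdown libraries, 4.60, 3.78 and 4.06 CPM with PRGL493 and 2.88, 2.95 and 2.41 CPM in the controls. Outside, ZNF418 had 3.90, 3.08 and 3.05 CPM in the knockdown libraries, 2.31, 3.04 and 2.57 CPM with PRGL493 and 2.85, 2.21 and 2.54 CPM in the controls, ZNF221 had 2.65, 2.08 and 2.49 CPM in the knockdown libraries, 2.97, 3.74 and 4.34 CPM with PRGL493 and 2.36, 3.08 and 2.51 CPM in the controls and ZNF488 had 2.87, 2.48 and 3.82 CPM in the knockdown libraries, 2.87, 2.41 and 2.76 CPM with PRGL493 and 3.05, 3.50 and 2.48 CPM in the controls. Of these 6, only ZNF799 had a called change in the knockdown, and ZNF799, ZNF771 and ZNF221 were called higher with PRGL493. The call of ZNF221 was lost under 5 other settings, with adjusted p up to 0.19. Of the rows under the limit, 70 passed the filter on low counts; 19 of them were higher and 2 lower in the knockdown (27.1% and 2.86%, against 14.7% and 15.3% of all genes) and 13 higher and 2 lower with PRGL493 (18.6% and 2.86%, against 21.4% and 20.4%). The share called higher with PRGL493 was thus below that of all genes, with 55 of the 70 rows not called. The median log2 fold change of the 70 rows with PRGL493 was 0.292, with 80.0% above 0, against 0.282 and 81.4% for the members. With the limit raised to 10 CPM, 72 of 185 members were higher and 12 lower in the knockdown, and 93 higher and 13 lower with PRGL493.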

How the data were processed

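Trizol RNA was made into libraries by an Illumina procedure, per the labels' protocols. The table of 26475 gene symbols is as the authors deposited it, with expected counts (estimated counts per gene and library, unscaled). Fractions occurred in 10.5% of the values, so all were rounded for the tests. The genome build was GRCh38, per the submitters' processing notes, while the aligner, the counter, the annotation release and any use of strand were not given in the sources used here. Every column was matched to a sample by its title.

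Genes were filtered with filterByExpr, scaled by TMM and tested in edgeR 4.0.16 (R 4.3.3) with the robust quasi-likelihood test over all 9 libraries with group as the only term, with Benjamini-Hochberg adjustment over the 14135 genes tested, at 0.05. The biological coefficient of variation was 6.38%, with 6 residual degrees of freedom. The totals of 28673940 to 43027217 counts put at least 47 counts behind every value of a member. DESeq2 1.42.0, other scalings, other filters, a replicate block, a length and GC trend removed by an additive model, and leaving out each library were the alternatives.

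Gene positions, transcript lengths and overlaps came from GENCODE 29. KRAB boxes and SCAN domains were sought with a profile search (pyhmmer 0.12.3, E-value 1e-04, 3 rounds) in its translated coding sequences; this replaced a planned pattern search in RefSeq proteins. Promoters came from RefSeq on GRCh38.p14. The members and all lists were chosen with earlier results of these data known. Genes named were the 10 largest called rises and falls against the controls in each treatment, up to 4 called alike or oppositely in both, the 5 largest called differences between treatments in each direction, the 6 with the highest CPM, the 3 on each side of the CPM limit, ACSL4 and SNAI1, and called or defining genes of the lists; ZNF91, ZNF274, ZNF10 and ZNF143 were added for their known roles.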

Additional observations from a re-analysis of the deposited data

How the results depend on the processing

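Single genes were followed through the alternatives if named for their change, their level or the CPM limit, or if ACSL4 or SNAI1. None of their called values turned direction. The calls of ZNF91, ZNF274, ZNF10, ZNF143, the repressor and histone enzyme lists and zinc finger genes outside the numbered ZNF symbols were not followed singly. The balance of members between the treatments did turn under upper-quartile factors, with 72 higher and 63 lower in the knockdown than with PRGL493 (50 and 83 as reported) and a median of 0.0193 (-0.0356 as reported). Members higher in the knockdown than in the controls numbered 140 to 175 under the other settings over the same members (154 as reported) and 119 to 165 with 1 library left out; with PRGL493 they numbered 167 to 215 (185 as reported) and 152 to 162. The highest counts, 175 and 215, were with the length and GC trend removed, where 20.9% and 30.8% of all genes were called higher. Members lower in the knockdown were 19 as reported, 12 with library totals alone and 10 to 28 with 1 library left out, 28 without knockdown replicate 1, 12 without control replicate 2 and 10 without control replicate 3. With PRGL493 the lower members numbered 12 to 19, and 10 to 16 with 1 library left out. Between the treatments, 43 to 72 were higher and 63 to 89 lower, and 34 to 67 and 58 to 88 with 1 library left out. Without knockdown replicate 1 the members' median log2 fold change in the knockdown was 0.164. With members limited to a mean of 10 CPM (185 left), 72 were higher and 12 lower in the knockdown, 93 higher with PRGL493 and 26 higher in the knockdown than with PRGL493; limited to the 233 with a KRAB box, an alternative chosen after seeing the data, 7 were lower in the knockdown, 3 lower with PRGL493 and 42 lower in the knockdown than with PRGL493. These smaller counts come from fewer members. Scaling moved the share of higher calls over all genes in the knockdown, 49.0% as reported, to 59.8% with library totals and 58.7% with upper-quartile factors, where the members stood at 89.0%, 93.1% and 92.7%. Between the treatments upper-quartile factors moved it from 37.6% to 53.3% for the members and from 48.4% to 58.4% for all genes.

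Replicate numbers are shared by the groups. Correlations of deviations ran from -0.0841 to 0.152 for same-numbered libraries and from -0.138 to 0.0778 for different numbers. Between the controls and the knockdown, same-numbered libraries had 0.108, 0.152 and 0.0619, above the -0.138 to 0.0249 of different numbers. Same-numbered pairs that included PRGL493 were all negative, from -0.0841 to -0.0151. As the sign was not shared, the numbers were not taken as a pairing. With the replicate block, 142 members were higher and 17 lower in the knockdown, 178 and 13 with PRGL493, and 48 and 81 in the knockdown against PRGL493. Of the values for the single genes followed, 2505 kept their side of the threshold, 98 lost a call and 37 gained one. With 3 libraries a group from 1 cell line and 1 hairpin, the calls speak of these cultures.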

Other observations

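Zinc finger genes outside the numbered ZNF symbols (ZSCAN, ZKSCAN, ZFP, ZBTB and related symbols, 71 of them at 3 CPM or more) had 23 higher and 6 lower in the knockdown and 43 higher and 4 lower with PRGL493, while 14.7% and 15.3% of all genes were higher and lower in the knockdown and 21.4% and 20.4% with PRGL493. The 15 with a KRAB box had 7 higher and none lower in the knockdown and 10 higher and none lower with PRGL493, and the 56 without one had 16 higher and 6 lower in the knockdown and 33 higher (58.9%) and 4 lower with PRGL493. ZKSCAN4, with a SCAN domain and a KRAB box, had 5.98, 7.72 and 6.75 CPM in the knockdown libraries, 6.49, 7.55 and 6.78 CPM with PRGL493 and 2.88, 3.60 and 2.84 CPM in the controls. All treated libraries lay above the controls (log2 fold change 1.13 ± 0.13 in the knockdown and 1.16 ± 0.13 with PRGL493, edgeR adjusted p = 7.89e-06 and 3.67e-06). ZFP82 had 16.2, 14.6 and 15.6 CPM in the knockdown libraries, 13.7, 13.3 and 13.7 CPM with PRGL493 and 7.86, 8.18 and 7.58 CPM in the controls, again without overlap with the controls. The 36 ZBTB genes, which pair zinc fingers with a BTB domain, had 9 higher and 5 lower in the knockdown and 22 higher and 2 lower with PRGL493; between the treatments 1 was higher and 16 were lower in the knockdown. The largest change among the 71 was in ZFP36, which encodes tristetraprolin, a CCCH-type RNA-binding protein and not a C2H2 factor. It fell to 28.8, 27.3 and 29.3 CPM in the knockdown and 50.3, 53.5 and 46.1 CPM with PRGL493, against 118, 119 and 125 CPM in the controls.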
